A study of Homo sapiens with 6 samples.

Results

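The 2 histone marks H3K4me3 and H3K27me3 were compared with each other in parental HL-60 cells, an established human promyelocytic leukaemia line labelled as myeloblast. Each mark is represented by 1 chromatin immunoprecipitation sequencing library, so 2 of the 6 libraries of the series carry the comparison. A gene was called marked when the centre of a peak lay at most 5 kb from a transcription start site (TSS) of that gene, or when a peak covered the TSS. The 4 deposited peak lists together name 18086 gene symbols, of which 12691 carried H3K4me3 only, 716 carried H3K27me3 only, 208 carried both marks and 4471 carried neither. The same rule was applied to the 2 lists from HL-60 cells knocked out for JMJD3, again with 1 library per mark, and these serve as a second reading of the same genes. Both genotypes were grown in the same medium without a stated treatment, and the sources used here do not say how the knockout was made or whether it is 1 clone. The input library of each genotype was not analysed here. The lists give positions only, without read counts or peak heights, so the depth is unknown and no difference below has a replicate check or a p-value. Intervals are Wilson 95% binomial intervals over genes or peaks, which are not independent, and cover counting error only.

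Trimethylation of lysine 4 of histone H3 (H3K4me3) is laid down by SET1 and MLL complexes and surrounds the start sites of active genes, most of all at promoters rich in CpG dinucleotides. Trimethylation of lysine 27 (H3K27me3) is written by Polycomb repressive complex 2, whose catalytic subunit is EZH2, and is removed by the demethylases JMJD3 (gene KDM6B) and UTX; it covers repressed genes, often genes of other lineages. Promoters at which both marks are found, first described in embryonic stem cells at developmental regulators, are known as bivalent. Immunoprecipitation of each mark alone does not show whether both lie on the same nucleosome, the same allele or the same cell.

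Promoter sequences of genes from 3 of the states give examples of CpG-rich and CpG-poor windows, and need not be typical of their state. They cover 250 bases before to 50 bases after a RefSeq start site in the build GRCh38.p14, are written 5′ to 3′ on the strand of the gene, and have every CG dinucleotide in capitals. BTBD11 (RefSeq symbol ABTB3, chr12:107318184-107318483, plus strand) and GAREM (RefSeq symbol GAREM1, chr18:32470833-32471132, minus strand) carried both marks. FOXP1 (chr3:71583679-71583978, minus strand) and SLC3A2 (chr11:62881449-62881748, plus strand) carried H3K4me3 only. SPRR2A (chr1:153057463-153057762, minus strand) and LCE1C (chr1:152806602-152806901, minus strand) carried H3K27me3 only.
BTBD11: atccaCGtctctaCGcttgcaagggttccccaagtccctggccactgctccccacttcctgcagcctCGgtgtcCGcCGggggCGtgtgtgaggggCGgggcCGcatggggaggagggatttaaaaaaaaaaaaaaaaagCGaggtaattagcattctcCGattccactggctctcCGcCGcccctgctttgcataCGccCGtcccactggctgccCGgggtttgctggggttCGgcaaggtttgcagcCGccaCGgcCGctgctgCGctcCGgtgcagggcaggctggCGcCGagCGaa
GAREM: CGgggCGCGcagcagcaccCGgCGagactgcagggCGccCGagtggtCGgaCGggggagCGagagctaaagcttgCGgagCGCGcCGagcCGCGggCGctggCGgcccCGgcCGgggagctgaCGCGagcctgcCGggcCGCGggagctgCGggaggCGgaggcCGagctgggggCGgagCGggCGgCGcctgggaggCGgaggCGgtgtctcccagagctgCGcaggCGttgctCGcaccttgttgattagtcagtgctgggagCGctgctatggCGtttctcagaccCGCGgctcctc
FOXP1: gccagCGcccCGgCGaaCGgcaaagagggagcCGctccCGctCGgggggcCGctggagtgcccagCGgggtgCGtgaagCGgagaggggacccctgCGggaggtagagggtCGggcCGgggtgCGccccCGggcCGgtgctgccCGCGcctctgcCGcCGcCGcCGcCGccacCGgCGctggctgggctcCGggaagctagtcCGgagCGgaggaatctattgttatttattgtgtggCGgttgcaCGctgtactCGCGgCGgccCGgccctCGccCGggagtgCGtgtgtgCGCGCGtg
SLC3A2: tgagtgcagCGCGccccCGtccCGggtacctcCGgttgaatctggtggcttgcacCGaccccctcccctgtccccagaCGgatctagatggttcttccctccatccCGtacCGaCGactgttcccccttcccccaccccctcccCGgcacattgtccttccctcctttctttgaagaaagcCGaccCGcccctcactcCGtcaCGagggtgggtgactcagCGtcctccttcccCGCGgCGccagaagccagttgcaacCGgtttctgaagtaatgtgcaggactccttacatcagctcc
SPRR2A: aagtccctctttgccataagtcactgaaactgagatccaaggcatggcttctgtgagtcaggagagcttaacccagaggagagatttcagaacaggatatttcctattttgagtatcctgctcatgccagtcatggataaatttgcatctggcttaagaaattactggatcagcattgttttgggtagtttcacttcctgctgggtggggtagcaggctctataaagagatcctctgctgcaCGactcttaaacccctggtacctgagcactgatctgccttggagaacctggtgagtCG
LCE1C: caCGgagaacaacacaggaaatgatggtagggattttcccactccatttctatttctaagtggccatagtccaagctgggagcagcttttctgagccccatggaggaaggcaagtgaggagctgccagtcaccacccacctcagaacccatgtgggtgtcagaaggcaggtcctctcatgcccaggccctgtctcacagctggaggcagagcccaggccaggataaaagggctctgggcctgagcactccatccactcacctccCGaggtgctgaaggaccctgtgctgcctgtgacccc
The GAREM and FOXP1 windows each held 41 CG dinucleotides, BTBD11 held 24 and SLC3A2 held 20. SPRR2A and LCE1C held 2 each. The TATAAA motif, searched on both strands, was found in the SPRR2A window and in none of the other 5. A gene can have further start sites, and the RefSeq window need not be the start site that the peak list names.

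H3K4me3 without H3K27me3 was the most common state. It was found at 70.2% of the symbols (69.5 to 70.8), H3K27me3 alone at 3.96% (3.68 to 4.25), both marks at 1.15% (1.0 to 1.32) and neither at 24.7% (24.1 to 25.4). Of the 924 genes with H3K27me3, 208 also carried H3K4me3 (22.5%, 19.9 to 25.3). Of the 17162 symbols without H3K27me3, 12691 carried it (73.9%, 73.3 to 74.6), and of all symbols 71.3% did. A symbol is counted only when some list has a peak within 20 kb of it, so a gene without H3K27me3 enters mostly through an H3K4me3 peak, and this contrast is partly fixed by how the symbols were gathered. Read from the other side, 1.61% of the 12899 H3K4me3 genes also carried H3K27me3 (1.41 to 1.84), where 5.11% of all symbols did. Among coding symbols the share of H3K27me3 genes with H3K4me3 was 28.2% (24.9 to 31.7), against 76.8% of all coding symbols. The lists differ in length, with 33470 H3K4me3 peaks over 17.5 Mb and 3578 H3K27me3 peaks over 4.22 Mb, and peak numbers show that 86.9% and 20.6% of the numbered peaks are listed. The part of these differences in the share of genes with both marks was not tested. Of the 4471 genes with neither mark, 2394 had only H3K4me3 peaks beyond the window and within 20 kb, 1098 had only H3K27me3 peaks there, 56 had both, and 923 appear through the knockout lists alone.

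Markers of the labelled lineage mostly carried H3K4me3. Of 12 promyelocyte and granulocyte marker genes, 10 carried H3K4me3 only, beside 70.2% of all symbols, and none carried H3K27me3. MPO, the myeloperoxidase of the azurophil granules, had 5524 bp of promoter H3K4me3 in 5 peaks (widths are summed over the peaks of a gene). The lineage transcription factors CEBPE, CEBPA and SPI1 had 4655, 4052 and 3908 bp. GFI1, a repressor needed for neutrophil formation, had 7269 bp. The granule protease genes PRTN3 and CTSG had narrow H3K4me3, 389 and 312 bp. ELANE and AZU1, which encode neutrophil elastase and azurocidin, were the 2 markers with neither mark. The nearest H3K4me3 peak to ELANE lay 8570 bp from its TSS, and no H3K27me3 peak was listed within 20 kb of it. In 2 broader lists that share members with the markers, 9 of 18 listed granule protein genes (50%) and 13 of 22 listed myeloid surface receptors (59.1%) carried H3K4me3 only, both below the share of all symbols. Markers of other lineages were listed in part. Of 7 lymphoid markers 4 were listed and 2 carried H3K4me3, with widths of 146 bp (LCK) and 600 bp (CD79A). Of 8 erythroid and megakaryocyte markers 3 were listed, and EPOR and KLF1 carried H3K4me3 of 1161 and 1288 bp. Of 11 epithelial, fibroblast and neuronal markers 8 were listed, of which MAP2 and TUBB3 carried H3K4me3 of 369 and 170 bp and 6 carried neither mark.

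Most transcription factors of blood cells carried H3K4me3 only. Among 29 listed haematopoietic transcription factors this was the state of 24 (82.8%, beside 70.2% of all symbols), with a median width of 3756.5 bp. Neither mark was found at 4 of them (GATA1, TAL1, MEIS1 and PAX5, 13.8% beside 24.7% of all symbols), and 1 carried H3K27me3 only. The exception was EBF1, the factor that commits cells to the B lineage, with an H3K27me3 peak of 1234 bp whose centre lay 768 bp from a TSS. MYC, the growth regulator on chromosome 8, had 7422 bp of H3K4me3 in 2 peaks, and GATA2 had 5576 bp in 11 peaks, while KLF4, a regulator of monocyte formation, had 663 bp. Over all 12691 H3K4me3-only genes the median was 1564 bp (quartiles 954 and 2286). The widest were FOXP1, a forkhead transcription factor, with 9862 bp in 19 peaks over 5 listed start sites, and SLC3A2, the heavy chain of an amino acid transporter, with 9626 bp in 8 peaks. BZRAP1-AS1 followed with 8751 bp, BCL11A with 8090 bp, ELF1 with 7867 bp and TRIB1 with 7842 bp. SNORD12 and SNORD12B, small nucleolar RNA genes that share a neighbourhood, both read the same 8 peaks of 7803 bp. None of these 8 genes had an H3K27me3 peak within 20 kb.

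**Figure D1:**
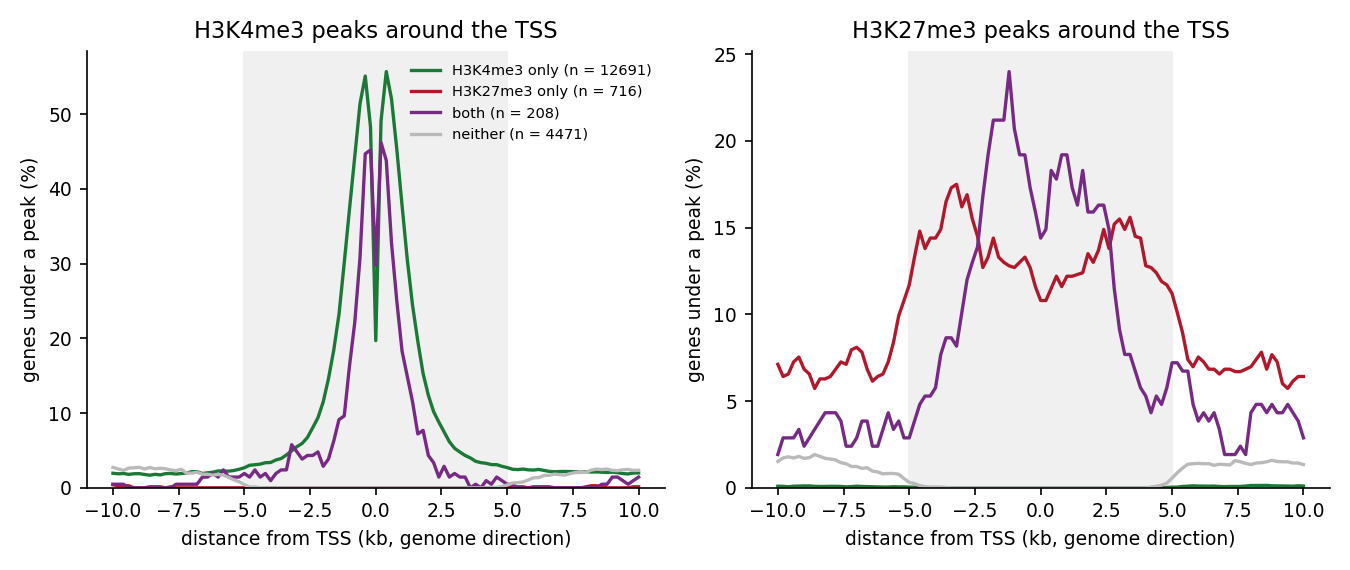
Share of genes (%) that lay under a peak at each distance from 1 listed TSS per gene (kb, in the direction of the genome), for H3K4me3 (left) and H3K27me3 (right) in parental HL-60, with 1 line for each promoter state and the 5 kb window in grey. H3K4me3-only genes reached 55.1% at 400 bp before and 55.7% at 400 bp after the TSS with 19.7% at the TSS itself, while H3K27me3 in H3K27me3-only genes stayed between 10.8% and 17.5% across the window.

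Few peaks of the 2 marks overlapped. The H3K4me3 peaks cover 17.5 Mb and the H3K27me3 peaks 4.22 Mb, and how much overlap such coverage would give by itself was not tested. Of the 3578 H3K27me3 peaks 88 overlapped an H3K4me3 peak by at least 1 bp (2.46%, 2.0 to 3.02), and 112 of the 33470 H3K4me3 peaks overlapped an H3K27me3 peak (0.335%, 0.278 to 0.402). The bases under both marks came to 39617, which is 0.939% of the bases under H3K27me3 and 0.226% of those under H3K4me3. An H3K4me3 peak lay within 5 kb of 248 H3K27me3 peaks (6.93%) and within 20 kb of 574 (16.0%). The median distance from an H3K27me3 peak to the nearest listed H3K4me3 peak was 169 kb (quartiles 58.8 and 328 kb). Peaks that overlapped the other mark were wider than those that did not: a median of 1305 against 901.5 bp for H3K27me3 and 550.5 against 358 bp for H3K4me3. A wider peak has more room to overlap, and the part of this in the difference was not tested. Of the H3K4me3 peaks 41 lay wholly inside an H3K27me3 peak, and 11 H3K27me3 peaks lay wholly inside an H3K4me3 peak.

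At the 208 genes with both marks, how far apart the peaks can stand is largely set by the rule. Each counted peak had its centre within 5 kb of a TSS or covered it, and 201 genes had both marks at the same TSS. The share that overlapped also depended on the rule, with 77.6% at a window of 1 kb and 78.3% with peaks that span the TSS. With the window of 5 kb the peaks were as follows. They overlapped at 92 genes (44.2%, 37.6 to 51.0), stood 1 to 1000 bp apart at 49 (23.6%), between 1 and 5 kb apart at 57 (27.4%) and farther apart at 10 (4.81%). The median gap between edges was 159 bp, and the median distance between centres was 1099 bp. Where peaks overlapped, the median overlap was 372 bases (quartiles 167.75 and 563.25), which was a median of 31.2% of the promoter H3K4me3 and 23.5% of the promoter H3K27me3. At 14 of the 92 genes all promoter H3K4me3 lay inside H3K27me3. At 178 of the 208 genes (85.6%) the nearest H3K4me3 peak centre lay closer to a TSS than the nearest H3K27me3 peak centre. A wide H3K27me3 peak can cover a TSS with its centre far away. H3K4me3 also had more centres to choose from, with a median of 2 peaks per gene against 1. An H3K4me3 peak spanned a TSS at 76 genes and an H3K27me3 peak at 36, and both did at 23. Any listed start site of a gene counted here, so the 2 marks could span different ones, as at NDUFA5. The 208 genes rest on 226 distinct H3K27me3 peaks and 372 distinct H3K4me3 peaks, since neighbouring genes can read the same peaks. At 7 genes the marks lay at different start sites only. The longest gaps, up to 1357709 bp at DLG2, belong to genes with several start sites. DLG2, which encodes a synaptic scaffold protein, was chosen after its value was seen.

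**Figure D2:**
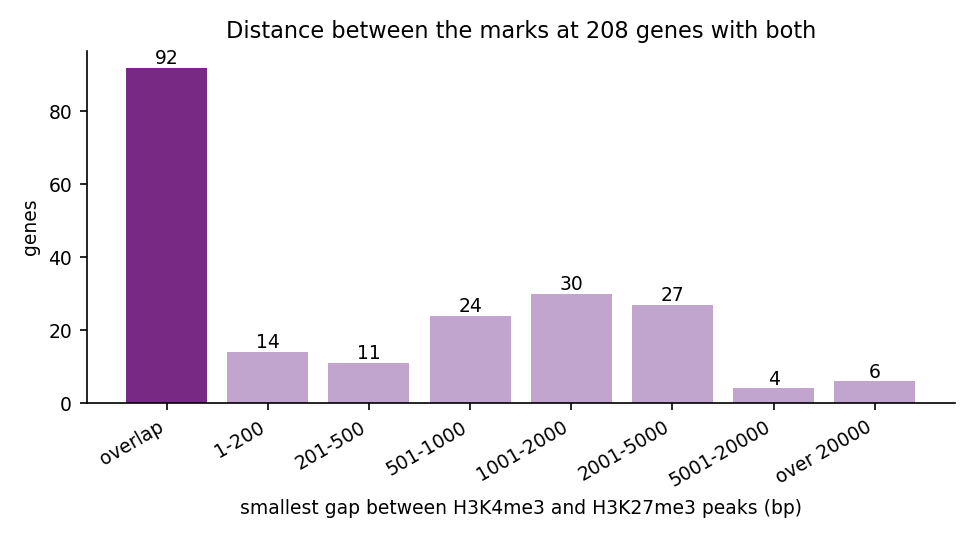
Number of genes (vertical axis) by the smallest gap in bp between a promoter H3K4me3 peak and a promoter H3K27me3 peak, for the 208 parental genes with both marks. The bar of overlapping peaks holds 92 genes, and 14 genes lie within 200 bp without overlap.

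The largest overlap was at BTBD11, an ankyrin and BTB domain gene on chromosome 12. Its H3K4me3 peak ran from 107712195 to 107714428 (hg19, counted from 1, as are all peak positions here), and its main H3K27me3 peak ran from 107710968 to 107714360. Both spanned the TSS at 107712197, and 2166 bases lay under both marks, 75.5% of the promoter H3K4me3. FGFR1, a fibroblast growth factor receptor gene, shared 1280 bases between 3 H3K4me3 peaks of 2512 bp and 2 H3K27me3 peaks of 2593 bp. At GAREM, an adaptor of growth factor receptor signalling on chromosome 18, an H3K27me3 peak of 8317 bp, from 30045820 to 30054136, contained all 3 H3K4me3 peaks, which summed to 1240 bp. NPAS1, a neuronal transcription factor gene, showed the same nesting on a smaller scale. Its 2 H3K4me3 peaks of 1048 bp lay inside an H3K27me3 peak of 1291 bp that spanned the TSS. BAI2, an adhesion receptor gene of the brain, had 1160 bp of H3K4me3 inside 2480 bp of H3K27me3, and MIR4254 is counted among the genes with both marks through these same peaks.

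CDK6, a cyclin-dependent kinase that drives entry into S phase and is expressed in blood progenitors, showed an edge between the marks. Its 5 H3K4me3 peaks ran from 92461980 to 92466777 on chromosome 7 and summed to 4327 bp, and the H3K27me3 peak of 3739 bp ran from 92465465 to 92469203. The overlap of 1194 bases covered 27.6% of the H3K4me3, at the upstream of the 2 listed start sites. LOC101927497, a noncoding gene with its start in between, read the same peaks. TGFA, an epidermal growth factor receptor ligand, had 2383 bp of H3K4me3 over its TSS and 2421 bp of H3K27me3 on 1 side, with 1077 shared bases. ZNF521, a zinc finger regulator of blood progenitors on chromosome 18, had 5215 bp of H3K27me3 that covered 79.4% of 1311 bp of H3K4me3.

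Of the 6 genes with both marks and the widest H3K27me3, BTBD11, GAREM and ZNF521 have 1 listed start site, and the other 3 have several. NEDD4L, a ubiquitin ligase of sodium channels on chromosome 18, had the widest, 12175 bp in 7 peaks spread over 5 listed start sites. Its only H3K4me3 peak, of 1799 bp, overlapped the nearest of them by 545 bases. KCTD1 had 11788 bp of H3K27me3 in 4 peaks and 609 bp of H3K4me3. The nearest of these H3K27me3 peaks, of 1083 bp, stood 5056 bp from H3K4me3. The others, among them the widest of 8469 bp, lay farther away near other start sites. PCGF5, a subunit of a variant Polycomb repressive complex 1, had 3 peaks of each mark. At 1 start site an H3K27me3 peak of 5174 bp, from 92919837 to 92925010 on chromosome 10, contained H3K4me3 peaks of 600 and 230 bp. At its downstream start sites an H3K4me3 peak of 1088 bp and H3K27me3 peaks of 1079 and 375 bp did not overlap.

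Developmental regulators and neuronal genes were present among the genes with both marks, in small numbers. Of 55 listed homeobox genes outside the HOX clusters 2 carried both marks, beside 1.15% of all symbols. LHX4 had marks of 2330 and 1424 bp (H3K4me3 first) that overlapped by 63 bases, and DLX5 had marks of 198 and 509 bp that stood 1110 bp apart. Among 36 other developmental transcription factors, the Notch targets HEY1 and HEY2 carried both marks, with overlaps of 396 and 65 bases. Among 48 signalling genes of development, FGF9 had overlapping marks and BMP6 had marks 646 bp apart. Of 58 ion channel and neurotransmitter receptor genes 5 carried both marks (8.62%). SCN9A, a sodium channel of pain neurons, had 97.1% of its 487 bp of H3K4me3 under H3K27me3. HTR7, CHRNA7 and KCNH1 had gaps of 1731, 549 and 1131 bp. GAD1, which makes the transmitter GABA, had 446 shared bases, and LGR5, a stem cell receptor of the gut, had 444, all of its H3K4me3. Both were chosen after their values were seen.

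H3K4me3 regions were narrower at genes with both marks than at genes with H3K4me3 alone. The median summed promoter width was 1040 bp (quartiles 561.25 and 1426.75) against 1564 bp, with a median of 2 against 3 peaks per gene. When H3K4me3 genes were divided into 5 classes of equal size by width, the share that also carried H3K27me3 was 3.06% (2.46 to 3.8) in the narrowest class, up to 816 bp, and 2.56%, 1.32%, 0.814% and 0.310% (0.157 to 0.611) in the next 4. The order depends on what counts as a promoter peak: with peaks that span the TSS alone, the medians were 859 bp for the 23 genes with both marks and 798 bp for H3K4me3 alone. H3K27me3 width differed less, with a median of 1147 bp at genes with both and 1038.5 bp at H3K27me3-only genes. Across 5 classes of H3K27me3 width the share with H3K4me3 ran between 16.2% and 26.5% without an order. The H3K27me3 peak centre was closer to the TSS at genes with both marks, at a median of 1551.5 bp against 2304 bp at H3K27me3-only genes. This is the smallest distance over the listed start sites of a gene. Several were listed at 24% of genes with both marks and 16.5% of H3K27me3-only genes, and the part of this was not tested.

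CpG content was lower at H3K27me3-only genes than at genes with H3K4me3, alone or with H3K27me3. RefSeq promoters were found for 9024 of 10509 coding H3K4me3-only genes, 137 of 171 with both marks and 373 of 445 with H3K27me3 only, chromosome 8 left out. The check is void for genes with neither mark, of which 76.3% were matched, so low CpG content is not shown to be particular to H3K27me3-only genes. The median ratio of observed to expected CpG was 0.851 (quartiles 0.716 and 0.960) with H3K4me3 only, 0.853 (0.658 and 0.992) with both marks and 0.323 (0.139 and 0.691) with H3K27me3 only, against 0.812 over all coding symbols and 0.580 over all promoters of the table. A ratio of at least 0.6 was found at 84.8% (84.0 to 85.5), 78.1% (70.5 to 84.2) and 30.8% (26.4 to 35.7) of the genes. H3K27me3-only genes whose peak spanned the TSS had a median of 0.178, over 53 genes. With a window of 1 kb the H3K27me3-only median was 0.167. Overlapping and separate marks differed little, with medians of 0.835 over 59 genes and 0.859 over 78.

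The share of genes with H3K4me3 was higher in each next class of CpG ratio. This held among H3K27me3 genes and among all listed coding genes with a matched promoter, chromosome 8 left out. Among H3K27me3 genes it was 5.04% of 139 genes (2.46 to 10.0) below a ratio of 0.2, 12.5% of 88, 19.7% of 61 and 28.6% of 84 in the next 3 classes, 54.2% of 96 (44.2 to 63.8) from 0.8 to 1.0, and 73.8% of 42 (58.9 to 84.7) at 1.0 or more. Among all these listed coding genes it was 34.3% of 1044, 46.7%, 65.1%, 83.5%, 90.4% and 94.3% of 1671 in the same classes. The latter include genes with neither mark, of which 76.3% were matched, under the limit set for the check. A gene without H3K27me3 is also listed mostly through an H3K4me3 peak, so the shares of all coding genes are partly fixed by listing and matching. Short motifs followed the same division. TATAAA, on either strand, was present in 20.6% of H3K27me3-only promoters, 6.57% of promoters with both marks and 5.44% of those with H3K4me3 only, where 12% of all promoters of the table hold it. GGGCGG, the core of the GC box, was present in 31.6%, 72.3% and 70.5%, against 44.6% of all promoters. PCGF5 had a CpG ratio of 1.19 with 55 CG dinucleotides, and GAREM had 41. RAG1, with a ratio of 0.817, and ARHGEF12, with 1.11, were H3K27me3-only genes with CpG-rich windows. Neither H3K27me3 peak of RAG1 covered its TSS. At ARHGEF12 a peak covered 1 of 2 listed start sites, which need not be that of the window.

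**Figure D3:**
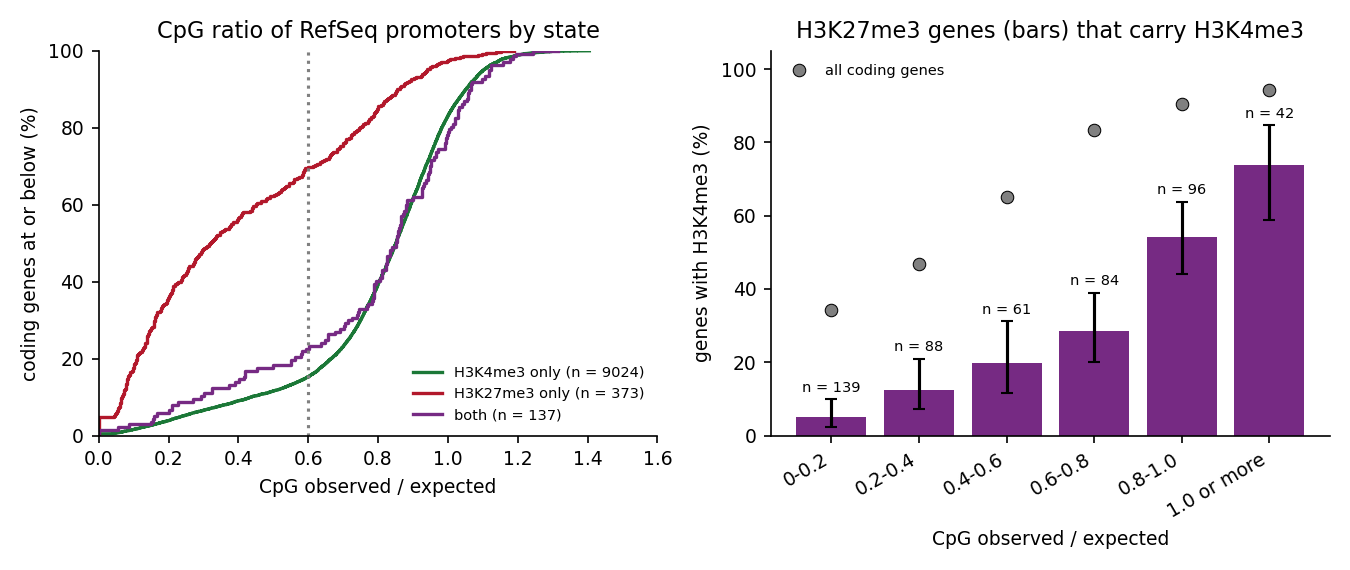
Left, the share of coding genes (%) at or below each CpG observed to expected ratio of the RefSeq promoter, for 3 promoter states, with a dotted line at 0.6. Right, the share of H3K27me3 genes (%) that also carried H3K4me3 by class of CpG ratio. Wilson 95% intervals are drawn as error bars, with the number of genes above. Grey points give the same share of all listed coding genes with a matched promoter. The bars go from 5.04% to 73.8% and the points from 34.3% to 94.3%.

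The widest H3K27me3-only genes came from the epidermal differentiation complex on chromosome 1, a cluster of skin barrier genes expressed in keratinocytes. SPRR2A, a small proline-rich protein of the cornified envelope, lay under the widest H3K27me3 peak of the list, 13028 bp from 153022348 to 153035375. FLG-AS1, antisense to the filaggrin gene, led with 13659 bp in 2 peaks. LCE1C had 11423 bp, SPRR1A 9536 bp and SPRR2D 8559 bp. The other 3 of the 8 widest lay elsewhere. RIMS1, a presynaptic scaffold gene, had 10312 bp over 5 listed start sites, ARHGEF12 had 9716 bp, and RAG1, the recombinase of lymphocyte receptor genes, had 8526 bp in peaks on both sides of its TSS. None of these 8 had an H3K4me3 peak within 20 kb.

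Among the groups plotted here, the epidermal differentiation complex, the defensins and the olfactory receptors held the highest shares of listed members with H3K27me3 only. Of 36 listed genes of the epidermal differentiation complex, 29 carried H3K27me3 only (80.6%, beside 3.96% of all symbols), through 49 distinct peaks. TCHH alone carried H3K4me3 only. LCE3A carried both marks, with 215 bp of H3K4me3 and an H3K27me3 peak 4629 bp from its TSS. Olfactory receptors had 47 of 177 listed genes with H3K27me3 only (26.6%), 124 with neither mark and 5 with H3K4me3 only, and RefSeq holds 392 coding genes of that name. OR1N2 and OR10A6 led with 4792 and 3998 bp. OR6B2 was the receptor gene with both marks, whose peaks stood 7862 bp apart. Among beta-defensins and their relatives, epithelial antimicrobial peptides, 6 of 20 carried H3K27me3 only. Keratins had 5 of 30 and keratin-associated proteins 5 of 48. These shares count listed genes, while RefSeq holds 45 coding defensin, 55 keratin and 94 keratin-associated genes by name. Reads of near-identical copies within these families can be split or lost in alignment, so states of single members are uncertain.

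Families of matrix, adhesion and metabolism also had H3K27me3-only members, at shares above the 3.96% of all symbols. Collagens had 5 of 23 genes with H3K27me3 only, among them COL4A1 and COL4A2, which share a start region and 1 peak of 1340 bp. Cadherins and protocadherins had 5 of 31, led by CDH17 with 3031 bp, and cytochrome P450 genes 5 of 43, led by CYP2J2 with 3666 bp. RefSeq holds 44 collagen, 89 cadherin and protocadherin and 56 cytochrome P450 coding genes by name, so the shares would be lower over whole families. Long intergenic noncoding RNAs had 39 of 377 (10.3%) and microRNA genes 62 of 1001 (6.19%). Symbols without a coding transcript made up 34.5% of H3K27me3-only genes (31.1 to 38.1), 14.4% of H3K4me3-only genes and 11.5% of genes with both marks (7.88 to 16.6), where 20.4% of all symbols are of this kind. Among genes with neither mark they made up 35.8% (34.4 to 37.2), so a high share was not particular to H3K27me3-only genes.

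Most listed developmental transcription factors carried H3K4me3 only or neither mark, but neither mark was more common among them than among all symbols. Neither mark lay at 52.7% of homeobox genes outside HOX, 50% of other developmental factors and 63.6% of SOX genes, beside 24.7% of all symbols. H3K4me3 only was found at 36.4%, 36.1% and 18.2% of them, beside 70.2%. Of 39 listed forkhead genes 27 carried H3K4me3 only (69.2%) and 12 carried neither mark (30.8%). The share with H3K27me3 only was above that of all symbols among homeobox genes outside HOX, other developmental factors and SOX genes. None of the forkhead genes carried H3K27me3. Of the 33 listed HOX cluster genes, 13 carried H3K4me3 only (39.4%) and 20 carried neither mark (60.6%). None carried H3K27me3, beside 5.11% of all symbols. HOXA9, a driver of myeloid leukaemia, had 564 bp of H3K4me3 in 2 peaks, with the nearest centre 4148 bp from its TSS. Homeobox genes outside HOX had 4 of 55 with H3K27me3 only (7.27%), other developmental factors 3 of 36 (8.33%) and SOX genes 2 of 11 (18.2%), beside 3.96% of all symbols. RefSeq holds 19 coding SOX genes by name, so their share would be lower over the whole family. Among these homeobox genes POU3F2 had the widest H3K27me3, 3312 bp, and PAX6, the eye and brain regulator, had 258 bp, the smallest width in the list. SOX2, the pluripotency and neural factor, had a peak of 1999 bp centred 2944 bp from its TSS, and SOX17, the endoderm factor, one of 1919 bp at 4829 bp. NEUROD1 has no line in any of the lists.

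Genes that every cell uses carried H3K4me3 almost without exception. All 27 listed housekeeping genes and all 77 mitochondrial ribosomal protein genes carried H3K4me3 only, the state of 70.2% of all symbols. Among cytosolic ribosomal protein genes 79 of 81 did. RPL38 was the ribosomal gene with both marks, its 2172 bp of H3K4me3 standing 1542 bp from 1449 bp of H3K27me3. Cell cycle and DNA replication genes had 40 of 41 with H3K4me3 only, and CDK6 was the exception. The Polycomb genes themselves had 30 of 32 with H3K4me3 only, EZH2 with 2619 bp, and PCGF5 and CBX7, another subunit of Polycomb repressive complex 1, with both marks. Both marks were thus found at 6.25% of the listed Polycomb genes, beside 1.15% of all symbols. At CBX7 644 bp of H3K4me3 stood 724 bp from 503 bp of H3K27me3. KDM6B itself had 10 H3K4me3 peaks of 3041 bp and no H3K27me3 peak within 20 kb, and CDKN2A, a Polycomb target in many cell types, had 13 H3K4me3 peaks of 2842 bp and likewise no H3K27me3.

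**Figure D4:**
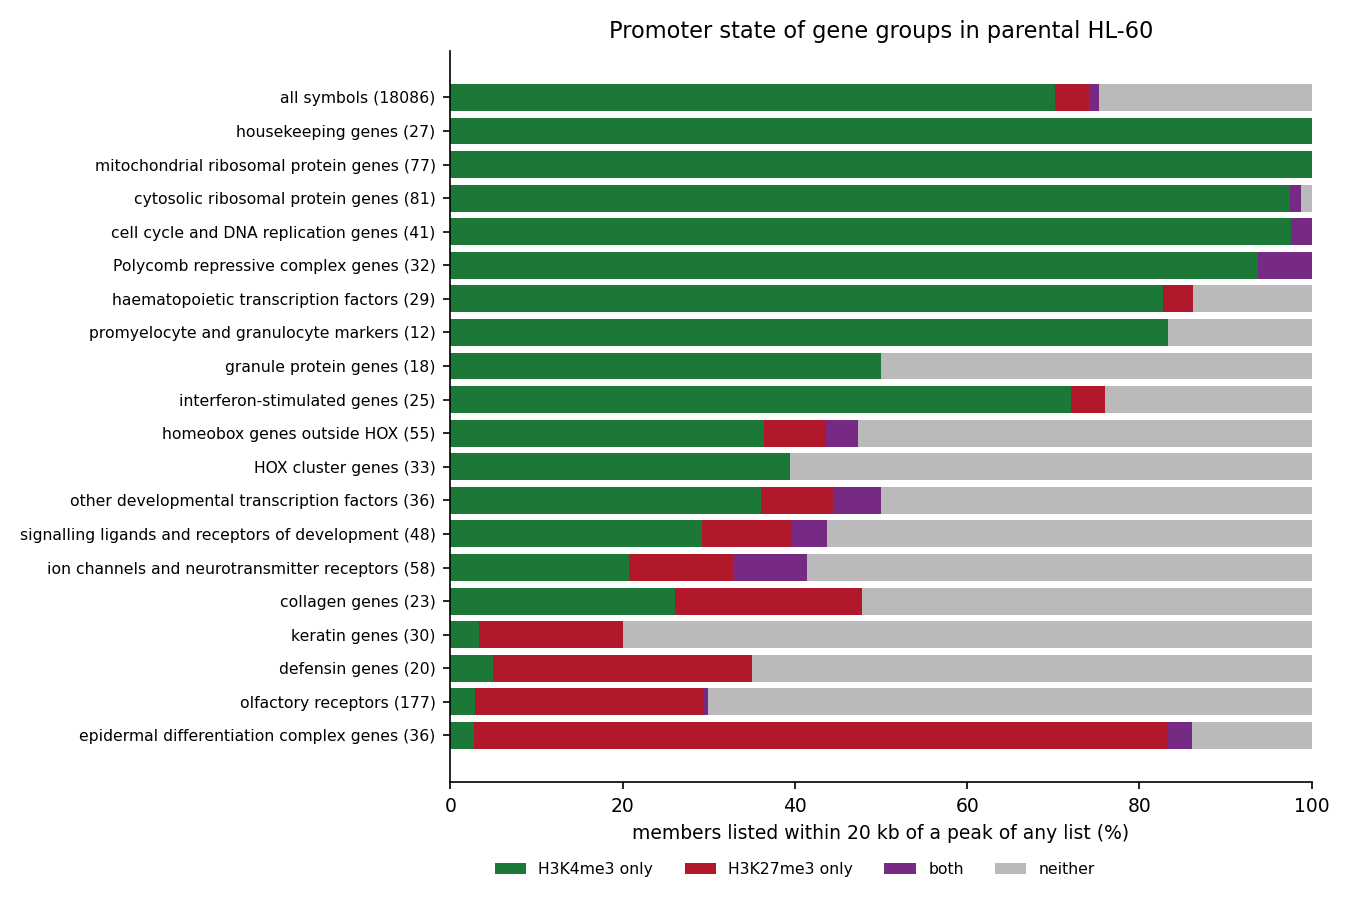
Share of listed members (%) in each promoter state for 19 gene groups and for all symbols in parental HL-60, with the number of listed members in brackets. H3K4me3 only takes up all of the bar for housekeeping genes, and H3K27me3 only takes up 80.6% of that of the epidermal differentiation complex.

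H3K27me3-only genes came partly in runs along the chromosomes. Joining listed genes that follow one another with at most 50 kb between start sites, the 716 genes fell into 603 runs, of which 527 held a single gene and 76 held 2 or more, with 189 genes. The longest, with 8 genes from LCE1E to IVL, spanned 152758753 to 152881039 on chromosome 1 and rested on 12 distinct peaks. A neighbouring run of 7 genes from LCE2D to KPRP rested on 15. A run of 6 small nucleolar RNA genes, SNORD114-17 to SNORD114-22 on chromosome 14, rested on 1 peak. By chromosome, H3K27me3-only genes ranged from 0.485% of symbols on chromosome 22 to 12.8% on chromosome 18, where 38 of 296 symbols were of this state. Chromosome 18 also had the highest share of genes with both marks, 11 of 296 (3.72%), among them GAREM, ZNF521, NEDD4L and KCTD1. The number of copies of chromosome 18 in these cells was not measured here, and its part in these shares was not tested.

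The knockout lists gave a second reading of the same genes. H3K4me3 was listed again at 87.0% of parental H3K4me3-only genes (11035 of 12691) and at 155 of the 208 genes with both marks (74.5%, 68.2 to 80). H3K27me3 was listed again at 318 of the 716 H3K27me3-only genes (44.4%, 40.8 to 48.1) and at 111 of the 208 genes with both (53.4%, 46.6 to 60.0), beside 4.97% of all symbols with H3K27me3 in the knockout list and 4.13% with H3K27me3 only. H3K4me3 was found at 4 of the 716 H3K27me3-only genes in the knockout list (0.559%, 0.217 to 1.43), 3.89% of genes with neither mark, and 62.9% of all symbols. None of the 716 turned to H3K4me3 only, which allows a share of up to 0.534% by the upper Wilson bound. All 8 of the widest H3K27me3-only genes were H3K27me3 only there too, SPRR2A with 3265 bp and LCE1C with 716 bp. They were chosen as the widest of the parental list, so lower widths in a second list follow in part from that choice. Of the 29 H3K27me3-only genes of the epidermal differentiation complex 21 carried H3K27me3 in the knockout list, and of the 47 olfactory receptors 22 did. Genotype, list length and depth cannot be told apart here, with 1 library on each side.

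Both marks were listed again at 95 of the 208 genes (45.7%, 39.0 to 52.5), beside 0.840% of all symbols with both in the knockout lists. Another 60 were H3K4me3 only, 16 H3K27me3 only and 37 neither. The 95 genes are 62.5% of the 152 with both marks in the knockout lists. Genes whose parental marks overlapped had both again in 51 of 92 cases, those 1 to 1000 bp apart in 26 of 49, those between 1 and 5 kb apart in 13 of 57 and those farther apart in 5 of 10. Of the 152 knockout genes with both, 43 had overlapping peaks (28.3%) and the median gap was 371 bp. These are partly other genes than the 208, and the median H3K4me3 peak was 260 bp wide in the knockout list and 359 bp in the parental one. The part of either in the lower share of overlaps was not tested. There were 21 genes with overlapping marks in both genotypes. BTBD11 had 2152 bp of H3K4me3 and 4383 bp of H3K27me3. GAREM had 491 and 8475 bp, CDK6 3063 and 1272 bp, and ZNF521 563 and 5134 bp. FGFR1 had H3K4me3 only, and NPAS1 had H3K27me3 only. TGFA, BAI2, NEDD4L, KCTD1 and PCGF5 again had both marks.

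**Figure D5:**
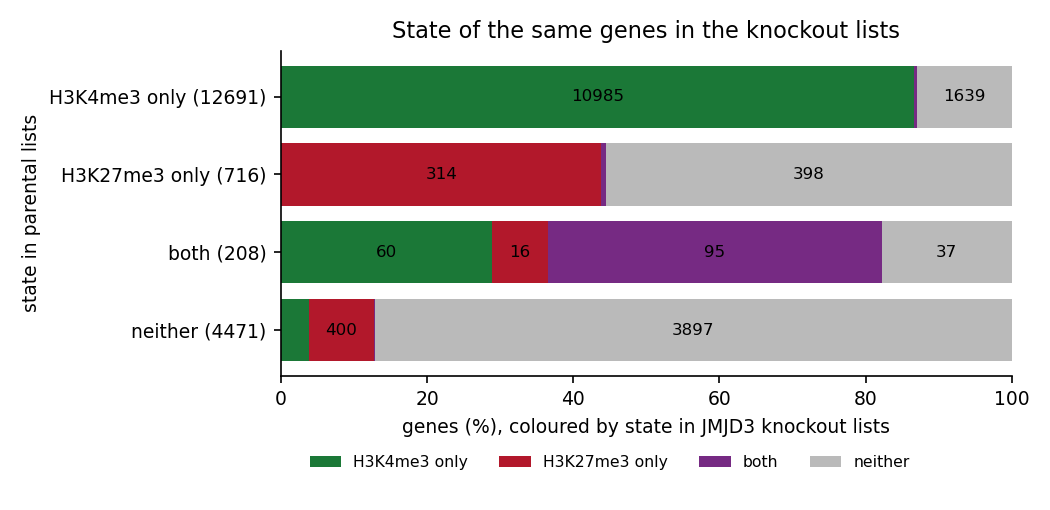
State of each parental gene group in the JMJD3 knockout lists, as a share of the genes of that parental state (%), with gene numbers in the larger segments and 1 bar for each parental state. Of genes with both marks 95 kept both and 60 had H3K4me3 only, and of H3K27me3-only genes 314 kept that state and 398 had neither mark.

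The window sets the edges of the states. Just inside it, the H3K27me3 peak centres of LCE3A, CMTR2 and MIR4254 lay 4629, 4706 and 4841 bp from a TSS, and these genes count as carrying both marks. Just outside it, those of SEC11C, CLU and CYP24A1 lay 5035, 5116 and 5134 bp away, and these genes count as H3K4me3 only.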

How the data were processed

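Chromatin immunoprecipitation libraries of H3K4me3 and H3K27me3 from parental and JMJD3 knockout HL-60 cells were used, 1 per genotype and mark. The build hg19 and the tools BWA 0.7.10, SAMtools and MACS2 2.1.1 come from the submitters' processing notes, with no settings. The label of the H3K27me3 antibody names H3K4me3, so the mark was taken from the library's title. Per the file headers, each deposited list pairs a peak with a RefSeq transcript and its gene symbol, and adds a distance and a score. The distance is the peak centre minus the TSS and stays under 20 kb, so TSS positions recovered from it hold to within 1 bp. The authors' deposited score depends on nothing but the distance (error at most 5e-13) and was not used. Starts were read as counted from 0.

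Lists were joined by symbol with pandas 2.3.3 in Python 3.11.15, and the code was tested on simulated peak lists. Widths sum a gene's distinct promoter peaks. The gap is the smallest distance between edges of promoter peaks of both marks. Promoters were taken from RefSeq GRCh38.p14. Of the 18086 symbols 16271 matched by symbol, 1656 by transcript accession and 94 by an older symbol. The check of CpG content used coding symbols off chromosome 8, and sets with under 80% matched were void.

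The genes and 48 lists were chosen with earlier results of these data known. Named genes are the 10 with the most overlapping bases, the 6 with both marks and the widest H3K27me3, the 8 widest of H3K27me3 only and of H3K4me3 only, up to 4 per list with both or H3K27me3 only, and 14 fixed genes. Members of the marker and blood factor lists, TCHH, GAD1, LGR5, DLG2 and the genes at the window's edge were added after their values were seen. For the sequences, coding genes alone were taken. Of the lymphoid markers, 1 gene is not reported here. With 1 library a side no test was made. Alternatives were windows of 1 and 10 kb, peaks spanning the TSS, the nearest gene only, H3K4me3 cut to the length of the H3K27me3 list by width, peaks of at least 300 bp, other universes, and stricter overlaps.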

Additional observations from a re-analysis of the deposited data

How the results depend on the processing

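The definition of a promoter peak set the number of genes in each state. With a window of 1 kb, 67 genes carried both marks and 184 H3K27me3 only, 26.7% of H3K27me3 genes carried H3K4me3, the marks overlapped at 77.6% of genes with both, the CpG medians were 0.167 (H3K27me3 only) and 0.858 (H3K4me3 only), and the median widths were 967 and 1097 bp. With 10 kb, 1216 genes were H3K27me3 only, the median gap was 884 bp, 34.1% overlapped, the H3K4me3-only CpG median was 0.845, and the widths were 1139 bp (H3K27me3 only) and 1642 bp (H3K4me3 only). With peaks that span the TSS alone, 23 genes carried both, 102 H3K27me3 only, 3077 H3K4me3 only and 14884 neither. Then 18.4% of H3K27me3 genes carried H3K4me3, 78.3% of genes with both overlapped, and CpG medians were 0.236 and 0.821. H3K27me3 widths were then 1743 bp (alone) and 1938 bp (both), and H3K4me3 widths 798 bp (alone) and 859 bp (both), which turns the order of the H3K4me3 widths.

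List length mattered too. With the widest H3K4me3 peaks, as many as in the H3K27me3 list, 43 genes carried both, 4362 H3K4me3 only and 12800 neither. Of H3K27me3 genes 4.65% carried H3K4me3, 53.5% of genes with both overlapped, 0.615% of H3K27me3 and 0.587% of H3K4me3 peaks overlapped, the CpG medians were 0.451 (H3K27me3 only) and 0.870 (H3K4me3 only), and the H3K4me3 widths were 1442 bp (alone) and 1410 bp (both). With peaks of at least 300 bp the values were 19.2% of H3K27me3 genes with H3K4me3, 0.408% of H3K4me3 peaks overlapped, a CpG median of 0.857 and a width of 1455 bp for H3K4me3 only. With the nearest gene only, the H3K4me3-only width was 1224 bp. When 50% of the H3K27me3 peak had to be covered, 0.615% of H3K27me3 and 0.0657% of H3K4me3 peaks counted, and when 50% of the H3K4me3 peak had to be, 1.17% and 0.176%. Between centres the median distance was 1099 bp. Coding symbols alone, a choice made after seeing the data, gave 469 H3K27me3 only, 2872 neither and 28.2% of H3K27me3 genes with H3K4me3. The other 58 of 108 alternative values stayed within 1.5 times the count or within the counting interval. In each of these fits the H3K27me3-only CpG median stayed below that of H3K4me3 only. The 67 genes with both at 1 kb, the 177 with the nearest gene only and the 168 with wider peaks are all among the 208. Of the named genes, 29 of 85 with H3K27me3 only, 17 of 39 with both and 16 of 18 with H3K4me3 only had the same state at 1 kb, and 84, 39 and 18 at 10 kb. No paired analysis was possible because each group has 1 library and no test was made, and no replicate could be left out. Depth is unknown, so an unlisted peak does not show that the mark is absent.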

Other observations

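Gene groups not described above differed in their share of H3K4me3 only, which was 70.2% of all symbols. Of 391 listed zinc finger genes of the ZNF family, 335 carried H3K4me3 only (85.7%), 4 H3K27me3 only and 1, ZNF521, both marks. Respiratory chain genes had 87 of 94 with H3K4me3 only, and NDUFA5 was the member with both, its marks at different start sites 42638 bp apart. Of 68 replication-dependent histone genes 56 carried H3K4me3 only and none carried H3K27me3. Serpins had 4 of 16, HLA genes 6 of 17 and killer and C-type lectin genes 6 of 19 with H3K4me3 only. Solute carriers had 198 of 276 with H3K4me3 only (71.7%), 15 with H3K27me3 only (5.43%) and 3 with both marks (1.09%), near the 3.96% and 1.15% of all symbols in the last 2 states. The 3 with both were SLC30A4, a zinc exporter with 501 shared bases, SLC17A7, the vesicular glutamate transporter of excitatory neurons with marks 2903 bp apart, and SLC32A1, the vesicular GABA transporter with marks 566 bp apart.

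In 3 lists of the myeloid and immune system a single gene carried H3K27me3 only. These were 1 of 22 listed myeloid surface receptors, 1 of 25 interferon-stimulated genes and 1 of 17 HLA genes, beside 3.96% of all symbols. None did among 18 listed granule protein genes, 21 inflammatory and NF-kB response genes and 19 killer and C-type lectin genes. CD163, a scavenger receptor of macrophages, was the receptor, with a peak of 382 bp. OAS2, an interferon-induced antiviral enzyme, was the interferon-stimulated gene, with 510 bp, while 18 others carried H3K4me3 only. HLA-DRA, a chain of the class II antigen presenting molecule, had an H3K27me3 peak of 932 bp and no H3K4me3 peak within 20 kb. H3K27me3 was listed again in the knockout lists at HLA-DRA, with 535 bp, and at neither CD163 nor OAS2.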
